A study of Mus musculus with 20 samples.

Results

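The nuclear genes of the mitochondrial respiratory chain were followed through 10 lists of ATAC-seq peaks, stretches of accessible chromatin found by where the Tn5 transposase inserts. The genes were taken by gene name from the annotation in each list, as names that start with Nduf, Uqcr, Cox4 to Cox8 or Atp5, and Sdha, Sdhb, Sdhc and Sdhd. These names covered 1602 of the 504887 listed peaks and 88 of the 19738 genes with a listed peak. Genes of the chain to which no listed peak was assigned were not analysed here. The respiratory chain sits in the inner mitochondrial membrane. Complexes I and II pass electrons from NADH and succinate to ubiquinone, complex III passes them to cytochrome c, complex IV reduces oxygen, and the ATP synthase uses the proton gradient that the chain builds. Most of its subunits are encoded in the nucleus by genes that nearly all cells use, with promoters that often hold sites for NRF1, GABPA and YY1, while a few subunits of complex IV have isoforms limited to muscle, lung, testis or other tissues. Mature neutrophils are known for few mitochondria and for relying on glycolysis.

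The cells were a mouse line of C57BL/6 strain, ER-Hoxa9-Lys-GFP, cultured in vitro in RPMI with serum and SCF-conditioned medium. Hoxa9 is a homeobox factor that, kept active as an estrogen receptor fusion by estradiol (E2), holds myeloid progenitors in an immature state. The lists covered 4, 8, 12, 24, 36, 48, 72, 96 and 120 h after E2 was washed out and 0 h, with E2 present. All groups were the same line, with no line that lacked the fusion, so culture time and E2 withdrawal cannot be told apart. Each time point had 2 samples but 1 deposited peak list, so there is no replicate spread to set a difference against, no test was made, and the 95% Wilson intervals cover counting error only. Read depth is unknown, and the lists held from 23620 peaks at 120 h to 62559 at 24 h. Neutrophil markers were listed with a peak at the start site of 7 of 10 genes at 120 h, against 3 of 10 at 0 h; Ltf, S100a8, S100a9, Cxcr2 and Mmp9 were listed at 120 h and not at 0 h, and Mpo at 0 h and not at 120 h. Progenitor markers had 4 of 5 at 120 h, without Kit, against 5 of 5 at 0 h. Macrophage and monocyte markers had 3 of 5 at 120 h against 2 of 5 at 0 h, and mast, basophil and eosinophil markers 1 of 5 at 120 h against 2 of 5 at 0 h. Lymphoid markers and erythroid and megakaryocyte markers each had 0 of 5 at 120 h against 2 of 5 at 0 h, and genes shared by blood cells had 4 of 4 at 120 h against 2 of 4 at 0 h. Of the mast, basophil and eosinophil markers and of the erythroid and megakaryocyte markers, 4 of 5 each had a peak assigned in any list. For a gene without one, a peak at its start site could not be counted. In bulk samples, fewer cells of a type and less open chromatin per cell cannot be told apart.

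Promoters of respiratory chain genes often face another gene, and the stretch between the 2 start sites is short. The stretches below are shown because the peak that covers them carried the neighbour's name in some lists for Sdhd, Sdha and Ndufb3, and in every list that had it for Uqcrh. They are from RefSeq, build GRCm38.p6, read 5′ to 3′ on the strand of the first gene, so that each ends at the base before that gene's start site. Capitals mark the letters CCGGAAG of ETS factors or the CCAAT box, on either strand.
Sdhd and Timm8b, chr9:50603850-50603900, minus strand: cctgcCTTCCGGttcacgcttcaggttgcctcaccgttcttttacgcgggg
Sdha and Ccdc127, chr13:74350241-74350316, minus strand: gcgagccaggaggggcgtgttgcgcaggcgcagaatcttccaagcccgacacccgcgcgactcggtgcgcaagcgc
Ndufb3 and Fam126b, chr1:58586334-58586396, plus strand: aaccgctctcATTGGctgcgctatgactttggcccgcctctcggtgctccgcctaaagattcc
Uqcrh and Lrrc41, chr4:116075071-116075268, minus strand: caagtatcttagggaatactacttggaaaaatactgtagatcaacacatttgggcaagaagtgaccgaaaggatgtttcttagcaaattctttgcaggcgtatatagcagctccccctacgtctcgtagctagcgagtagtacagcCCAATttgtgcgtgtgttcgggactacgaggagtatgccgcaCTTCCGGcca

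Over the time course the promoter peaks of the respiratory chain genes stayed in the lists and most of their distal peaks left them. A promoter peak was a peak whose centre lay at most 1000 bp from the transcription start site it was assigned to, and all others were called distal. The 88 genes had 66, 70, 69, 66, 67, 74, 71, 71, 68 and 69 promoter peaks at 0, 4, 8, 12, 24, 36, 48, 72, 96 and 120 h. Their distal peaks numbered 109, 107, 107, 109, 113, 117, 110, 80, 34 and 25 in the same order. At 120 h their promoter peaks stood at 105% and their distal peaks at 22.9% of the 0 h numbers, against 84.5% and 32.8% for all peaks. The log2 intervals of both ratios, -0.44 to 0.57 for promoter and -2.81 to -1.49 for distal peaks, held the values of all peaks. Promoter peaks made up 73.4% of their peaks at 120 h and 37.7% at 0 h, against 38.0% at 120 h and 19.2% at 0 h for all peaks. The 120 h list was the shortest. With every list held to its 23620 widest peaks, the log2 ratio of distal peaks at 120 h over 0 h was -0.64 (-1.43 to 0.12), in place of -2.12 (-2.81 to -1.49), so that the size of the distal decrease depends on how long the lists are.

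**Figure D1:**
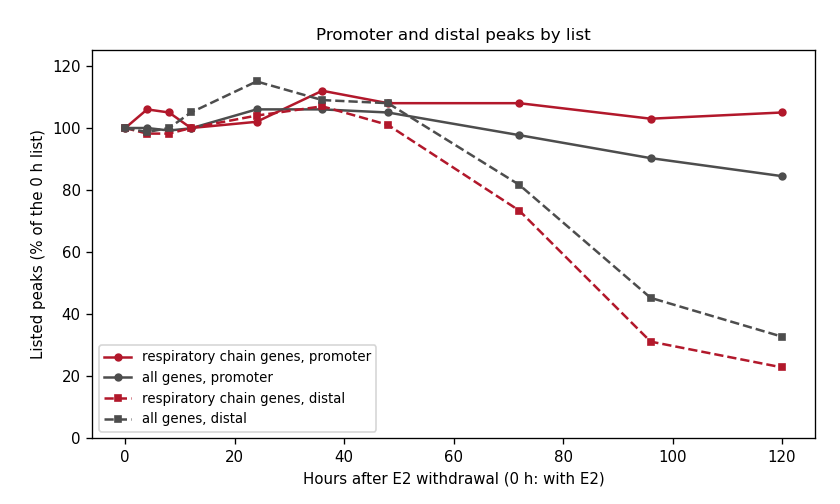
Listed promoter (solid lines) and distal (dashed lines) peaks of the respiratory chain genes (red) and of all genes (grey), as a percentage of the 0 h list, against hours after E2 withdrawal. The red solid line stays between 100% and 112% in every list, and both dashed lines drop after 48 h, to 22.9% for the respiratory chain genes and 32.8% for all genes at 120 h.

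Of the 63 genes with an assigned promoter peak at 0 h, 56 also had one at 120 h, which is 88.9% (78.8% to 94.5%), against 79.2% of 8925 protein-coding genes. The assigned gene of a peak is its nearest start site, so a peak between 2 start sites can pass from a gene to its neighbour without moving far. A second measure therefore counted any peak within 250 bp of the start site, whichever gene it was assigned to. Such a start-site peak was listed for 67, 71, 72, 72, 73, 74, 72, 76, 78 and 76 of the 88 genes from 0 to 120 h. Of the 67 genes with one at 0 h, 63 had one at 120 h, which is 94.0% (85.6% to 97.7%), against 84.0% of 9148 protein-coding genes. Among genes whose 0 h promoter peak was between 729.5 and 1028.5 bp wide, the middle range of the respiratory chain genes, the share kept was 29 of 31 (93.5%, 79.3% to 98.2%), against 86.7% of 3540 protein-coding genes. At this width the interval reaches below the share of all genes.

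In all, 81 of the 88 genes had a start-site peak in at least 1 list, and 47 of the 81 (58.0%, 47.2% to 68.2%) had one in all 10 lists, against 48.5% of 10822 protein-coding genes. Gaps in single lists were as common as in other genes. Where a gene had a start-site peak in the list before and the list after, it had none in the list between in 34 of 538 cases (6.32%, 4.56% to 8.7%), against 4300 of 65996 cases (6.52%) for all protein-coding genes. A start-site peak was listed at 120 h and not at 0 h for 13 of the 81 genes and the reverse for 4, against 1065 and 1468 of the 10822 protein-coding genes. Of the 13, only Uqcrh and Uqcrq also lacked one at 4 and 8 h. Both were listed at 72, 96 and 120 h, as were 150 of all protein-coding genes with none at 0, 4 and 8 h.

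**Figure D2:**
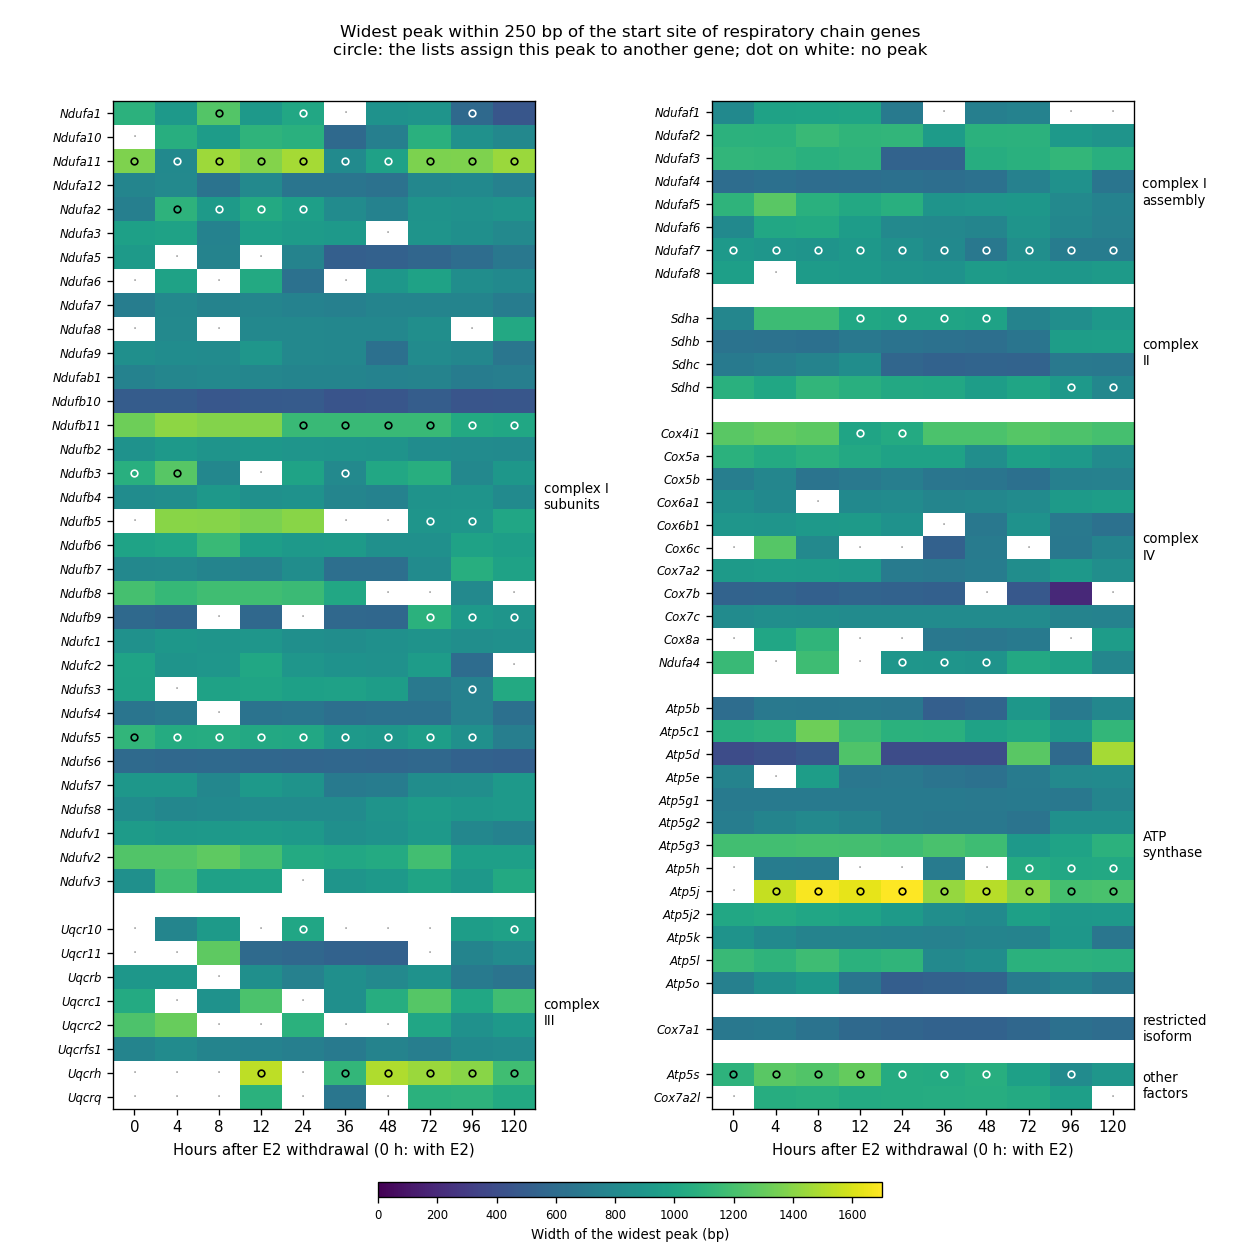
Width in bp (colour) of the widest peak within 250 bp of the start site of respiratory chain genes (rows, grouped by complex) in each list (columns, hours after E2 withdrawal). White cells with a dot have no such peak, and circles mark peaks that the lists assign to another gene; complex II rows are filled in every list, complex III rows hold gaps in every list up to 72 h, and the rows of Ndufaf7, Ndufa11, Atp5j and Uqcrh carry a circle wherever they are filled.

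Complex I, the NADH dehydrogenase, gave 35 subunit genes. A start-site peak was listed for 34 of them in at least 1 list, for 19 in all 10 lists, and for 32 at 120 h against 29 at 0 h. Among the core subunits that carry electrons, Ndufv1, which binds NADH, had a start-site peak 930, 907, 913, 936, 917, 845, 867, 923, 789 and 756 bp wide from 0 to 120 h. Ndufv2, its partner in the NADH-oxidising module, had a wider peak, of 1237, 1239, 1277, 1196, 1039, 1018, 1039, 1187, 959 and 962 bp. It was the narrowest from 96 h on, and the log2 width ratio of 120 h over 0 h was -0.36. Among the accessory subunits, Ndufb10 had a steady, narrow peak of 442 to 501 bp and Ndufs6 one of 523 to 589 bp in all 10 lists. Both were chosen after their values were seen. Ndufb7 had the largest increase among the complex I subunits with an assigned promoter peak in all 10 lists, at 980 bp at 120 h and 794 bp at 0 h (log2 ratio 0.30). Ndufa13 had an assigned promoter peak in all 10 lists, at 462 bp at 120 h and 598 bp at 0 h (log2 ratio -0.37), and none of these reached within 250 bp of its start site.

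Ndufb8, an accessory subunit of the membrane arm, had a promoter that left the lists late. Its peak was 1197, 1137, 1179, 1179, 1156 and 1022 bp wide from 0 to 36 h, was not listed at 48 and 72 h, was 800 bp wide at 96 h and was not listed at 120 h. Ndufc2 had a peak in every list up to 96 h, 989 bp wide at 0 h and 601 bp at 96 h, and none at 120 h. Ndufa1 had no start-site peak at 36 h, and its peak was 456 bp wide at 120 h and 1094 bp at 0 h. The subunits Ndufa8, Ndufb5, Ndufa6 and Ndufa10 had an assigned promoter peak of 1029, 1008, 807 and 792 bp at 120 h and none at 0 h. All of them had a peak at 4 or 8 h, so that none of them was absent from the whole start of the course.

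The 8 assembly factors of complex I, which help build the complex and are not part of it, all had a start-site peak at 0 h, and 7 had one at 120 h. Ndufaf1 was the exception, with peaks of 807, 981, 987, 992 and 701 bp at 0 to 24 h, 736 bp at 48 h, 753 bp at 72 h and none at 36, 96 and 120 h. Among the 7 with a peak at both times, 1 was wider at 120 h and 6 were narrower, with a median of 754 bp at 120 h and 962 bp at 0 h (median log2 ratio -0.11, -0.56 to 0.13). Ndufaf5 had the largest decrease of all respiratory chain genes with an assigned promoter peak in all 10 lists, at 754 bp at 120 h and 1108 bp at 0 h (log2 ratio -0.56). With 7 genes the interval of the median includes no change.

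Complex II, succinate dehydrogenase, links the chain to the TCA cycle, and its 4 genes were the only complex with a start-site peak in every list for every gene. Sdhb, the iron-sulfur subunit (chr4:140961271-140979198), had a peak 648, 644, 629, 683, 646, 633, 618 and 659 bp wide from 0 to 72 h and then 943 and 955 bp at 96 and 120 h. Both late values lay above all 8 earlier ones, and the log2 ratio of 120 h over 0 h was 0.56. Sdhc, a membrane anchor (chr1:171129157-171150640), had 694, 726, 761, 832, 564, 534, 549, 542, 686 and 681 bp, lowest from 24 to 72 h. Sdha, the flavoprotein that oxidises succinate (chr13:74322255-74350240), had 780, 1166, 1165, 1015, 990, 996, 980, 758, 839 and 904 bp. From 12 to 48 h the lists assigned that peak to Ccdc127, which starts 77 bp away on the other strand, so by assigned name Sdha had no promoter peak in those 4 lists. Sdhd, the second membrane anchor (chr9:50596340-50603849), had 1081, 1015, 1121, 1070, 1028, 1017, 947, 1002, 913 and 786 bp. Its last 2 peaks were assigned to Timm8b, a gene for a mitochondrial import chaperone, which starts 52 bp away, across the stretch printed above. By assigned name Sdhd lost its promoter at 96 h, and by position it had a peak in all 10 lists.

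Complex III, the ubiquinol to cytochrome c step, had the smallest share of genes listed throughout. All 8 genes had a start-site peak at 120 h, against 4 at 0 h, and only Uqcrfs1, the Rieske iron-sulfur protein, had one in all 10 lists, 766 bp wide at 0 h and 698 to 823 bp over the course. Uqcrq, a small accessory subunit (chr11:53427922-53430831), had a peak at 12 h (1083 bp), 36 h (670 bp), 72 h (1085 bp), 96 h (1097 bp) and 120 h (1032 bp) and none at 0, 4, 8, 24 and 48 h. By assigned name, its promoter was the only promoter region of a respiratory chain gene that was absent at 0, 4 and 8 h and listed at 72, 96 and 120 h. That is 1 of 73 promoter regions (1.37%), close to the 165 of 12780 promoter regions in all (1.29%). Uqcrh, the hinge protein, had a peak of 1529 bp at 12 h, 1127 bp at 36 h and 1498, 1446, 1401 and 1180 bp from 48 to 120 h, each assigned to Lrrc41, which starts 199 bp away. By position it shared the pattern of Uqcrq, with none at 0, 4 and 8 h. Uqcr11 had 1281 bp at 8 h, 587, 565, 534 and 529 bp from 12 to 48 h, and 766 and 822 bp at 96 and 120 h. The core proteins Uqcrc1 and Uqcrc2 each had a peak at 0 and at 120 h, of 1179 bp at 120 h and 1038 bp at 0 h for Uqcrc1 and of 923 bp at 120 h and 1224 bp at 0 h for Uqcrc2, with gaps between.

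Complex IV, cytochrome c oxidase, gave 11 genes of widely used subunits, Ndufa4 among them, with a start-site peak for 10 at 120 h and 9 at 0 h. Cox5a had 1086, 1039, 1078, 1027, 981, 977, 841, 966, 911 and 818 bp from 0 to 120 h, a log2 ratio of -0.41. Cox7b (chrX:106015700-106022450) had 542, 547, 523, 548, 535 and 523 bp from 0 to 36 h, none at 48 h, 467 bp at 72 h, 193 bp at 96 h and none at 120 h. It was the only gene of complex IV with a peak at 0 h and none at 120 h. Cox8a had 942 bp and Cox6c 766 bp at 120 h and neither had a peak at 0 h, but Cox8a had 1003 bp and Cox6c 1249 bp at 4 h. Of the isoforms restricted to some tissues, Cox7a1, known from heart and muscle, had a start-site peak in all 10 lists, 608 bp wide at 120 h and 680 bp at 0 h, the range being 536 to 702 bp. Cox4i2, Cox6a2, Cox7b2, Cox8c and Ndufa4l2 had none in any list, and no peak was assigned to Cox8b. For Cox6b2 no start site could be derived, so a start-site peak could not be counted, and no list assigned it a promoter peak. Cox7a2l, a factor that joins complexes III and IV, had a peak of 962 to 1071 bp from 4 to 96 h and none at 0 and 120 h.

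The ATP synthase gave 13 genes, all with a start-site peak at 120 h, against 11 at 0 h, and 10 with one in all 10 lists. Among the 11 with a peak at both times, 6 were wider at 120 h and 5 narrower, with a median of 850 bp at 120 h and 761 bp at 0 h (median log2 ratio 0.07, -0.15 to 0.38). Atp5b, the catalytic beta subunit, had 606, 686, 682, 686, 671, 512, 548, 898, 699 and 786 bp, a log2 ratio of 0.38. Atp5d, the delta subunit of the central stalk, had the largest width ratio, 1.37 on the log2 scale, with an assigned promoter peak of 1472 bp at 120 h and 570 bp at 0 h. Its widths from 0 to 120 h were 570, 568, 582, 1235, 566, 417, 557, 1264, 741 and 1472 bp, so wide values at 12, 72 and 120 h alternated with narrow ones. Atp5d had 17 promoter peaks over the 10 lists. At 12, 72 and 120 h its widest promoter peak was also its start-site peak. In the other lists the start-site peak was a separate, narrower peak, 396 bp wide at 0 h. The ratio therefore sets a single interval at 120 h against the wider of separate peaks at 0 h. Atp5k, a small membrane subunit, fell in width to 666 bp at 120 h, against 875 bp at 0 h (log2 ratio -0.39). Atp5g1, Atp5g2 and Atp5g3 encode the same mature c subunit of the rotor ring. Atp5g1 had 699, 694, 693, 693, 692, 694, 686, 694, 680 and 773 bp, level up to 96 h. Atp5g2 had 722, 768, 801, 758, 701, 681, 682, 652, 853 and 850 bp (log2 ratio 0.24), and Atp5g3 had 1187, 1187, 1199, 1192, 1173, 1214, 1175, 916, 986 and 1093 bp. All 3 were listed at every time, and Atp5g3 was the widest of them in every list. Atp5g1 was widest at 120 h, and Atp5g3 was narrower from 72 h on than before.

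Many respiratory chain genes had a close neighbour, and the label of a peak could pass to it. Of the 88 genes, 25 (28.4%, 20.0% to 38.6%) had a protein-coding gene on the opposite strand with a start site within 1000 bp, against 1305 of 16565 protein-coding genes (7.88%). Restricted to genes with a start-site peak, this was 24 of 81 (29.6%) against 1265 of 10822 (11.7%). In 22 of the 25 the closest start sites pointed away from each other. The widest start-site peak was assigned to another gene in at least 1 list for 19 of 81 respiratory chain genes (23.5%, 15.6% to 33.8%), against 1251 of 10822 protein-coding genes (11.6%), and 18 of these 19 had such an opposite gene. The exception was Ndufs5, whose peak was assigned in 9 lists to BC002163, which the lists type as a pseudogene and place at about the same start site, so the gene behind the Ndufs5 values is uncertain.

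For 4 genes, Atp5j, Ndufa11, Ndufaf7 and Uqcrh, the widest start-site peak carried another gene's name in every list that had one. Atp5j, coupling factor 6 of the ATP synthase, had none at 0 h and then 1552, 1684, 1637, 1708, 1430, 1519, 1405, 1199 and 1210 bp from 4 to 120 h, all assigned to Gabpa. Gabpa encodes the DNA-binding subunit of an ETS factor known to act on respiratory chain promoters, and its start site lies 148 bp from the nearest one of Atp5j. Ndufb11, an accessory subunit of complex I on the X chromosome, had 1327, 1411, 1387 and 1386 bp from 0 to 12 h under its own name. From 24 h on the peak was 1153 bp in each of 4 lists and 1035 and 1011 bp in the last 2, all assigned to Rbm10, a splicing regulator whose start site is 116 bp away within the overlap of both transcripts. Ndufb9 had 584 bp at 0 h under its own name and 887 bp at 120 h under Tatdn1. Cox4i1, the ubiquitous subunit 4 of cytochrome c oxidase, had 1263 bp at 0 h and 1199 bp at 120 h, with 992 and 1036 bp at 12 and 24 h under Emc8.

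Part of the change by name between the ends of the course was a change of label at start sites listed at both ends. The widths of those peaks differed as well. Of the 7 genes with an assigned promoter peak at 0 h and none at 120 h, namely Ndufb11, Ndufb8, Sdhd, Ndufc2, Ndufaf1, Ndufb9 and Cox7b, 3 (Ndufb11, Sdhd and Ndufb9) still had a start-site peak at 120 h. Of the 12 genes with the reverse, among them Uqcrq, Ndufa8, Ndufb5, Cox8a, Ndufb3, Atp5s, Uqcr11, Ndufa6, Ndufa10, Cox6c and Ndufs5, 3 already had one at 0 h. They included Ndufb3 under Fam126b (1073 bp) and Ndufs5 under BC002163 (1119 bp). No promoter region of a respiratory chain gene, 0 of 73, was listed at 0, 4 and 8 h and absent at 72, 96 and 120 h, against 496 of 12780 promoter regions in all (3.88%). Of the 73 promoter regions of respiratory chain genes, 44 (60.3%) were in all 10 lists, against 41.3% of all promoter regions. No interval was computed for these shares of promoter regions, and their difference from all promoter regions was not tested.

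Start-site peaks narrowed slightly, and so did those of all genes. The 63 genes with a start-site peak at both times had a median of 817 bp at 120 h and 875 bp at 0 h, and the median log2 width ratio was -0.08 (-0.15 to -0.02), against -0.08 over 7680 protein-coding genes. Of the 63, 21 (33.3%, 22.9% to 45.6%) were wider at 120 h, against 35.2% of all. With assigned promoter peaks, 19 of 56 were wider (33.9%), against 35.3% of all, and the median log2 ratio was -0.07 (-0.12 to -0.01). The median width of the start-site peaks in each list was 875, 902, 920.5, 922, 865, 790, 787, 876.5, 845 and 835.5 bp from 0 to 120 h for the respiratory chain genes. For all protein-coding genes it was 906, 913, 930, 912, 863, 805, 819, 898, 888 and 884 bp. Both were lowest at 36 and 48 h. A width is the length of the called interval and not the height of the signal, which the lists do not give.

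**Figure D3:**
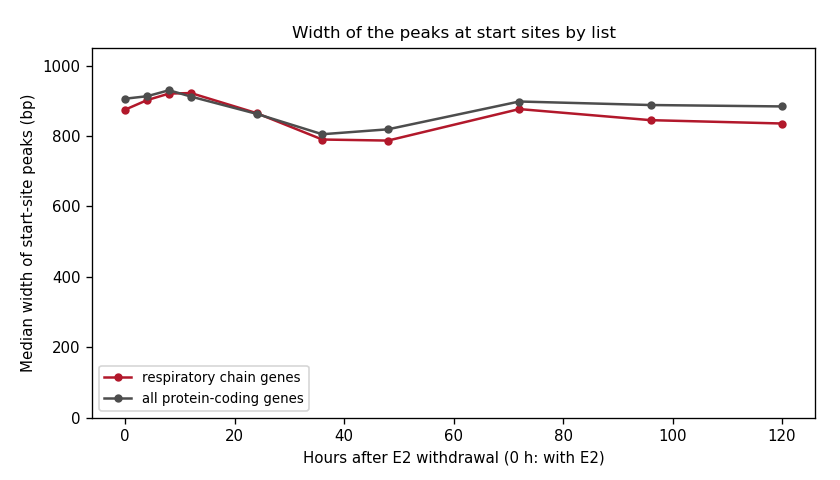
Median width in bp of the widest peak within 250 bp of each start site, for the respiratory chain genes (red) and all protein-coding genes (grey), against hours after E2 withdrawal. Both lines dip at 36 and 48 h, to 787 bp for the respiratory chain genes and 805 bp for all genes at their lowest, and lie at 835.5 and 884 bp at 120 h.

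The distal peaks of the respiratory chain genes formed 178 regions near 64 genes once peaks of different lists that overlapped by at least 1 bp were joined. Of these, 95 were intergenic and 63 intronic, and of the intronic ones 28 lay in the gene's own transcript and 35 in another gene. The median distance to the start site was 14067.5 bp, against 23027 bp for all distal regions, and 114 regions lay more than 10000 bp away. The nearest gene is not shown to be the gene a region acts on. From list to next list, 80.6% to 83.0% of the regions were listed again up to 48 h, against 79.7% to 83.6% of all distal regions. From 48 to 72 h this was 60.9%, against 66.4% of all. From 72 to 96 h, 30 of 79 regions were listed again (38.0%, 28.1% to 49.0%), against 48.7% of all. Of the 108 regions at 0 h, 19 were also listed at 120 h (17.6%, 11.6% to 25.8%), against 22.4% of all, a share inside the interval. Genes with a distal peak numbered 20 at 120 h and 47 at 0 h, while all distal peaks numbered 14652 at 120 h and 44654 at 0 h.

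Lost regions, listed at 0, 4 and 8 h and absent at 72, 96 and 120 h, numbered 27 of 178 (15.2%, 10.6% to 21.2%), against 14.0% of all distal regions. Gained regions, the reverse, numbered 3 (1.69%, 0.575% to 4.84%), against 2.56%. Regions in all 10 lists numbered 14 (7.87%, 4.74% to 12.8%), against 9.13%. All 3 shares of the respiratory chain genes had intervals that held the share of all regions. Transient regions, absent at 0, 4, 96 and 120 h and listed in at least 2 consecutive lists of 12 to 72 h, numbered 8 (4.49%, 2.29% to 8.62%), against 10.9%, which lay above the interval. They belonged to Cox6c, with 2, and to Atp5j2, Ndufa12, Ndufaf6, Ndufs4, Ndufs6 and Uqcrfs1.

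By complex, distal peaks at 120 h against 0 h numbered 8 against 28 for complex I subunits, 3 against 6 for its assembly factors, 1 against 5 for complex II, 1 against 7 for complex III, 2 against 18 for complex IV, 7 against 28 for the ATP synthase and 2 against 13 for the restricted isoforms. Each of these groups had fewer at 120 h, as did the whole list, whose distal peaks stood at 32.8% of the 0 h number.

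**Figure D4:**
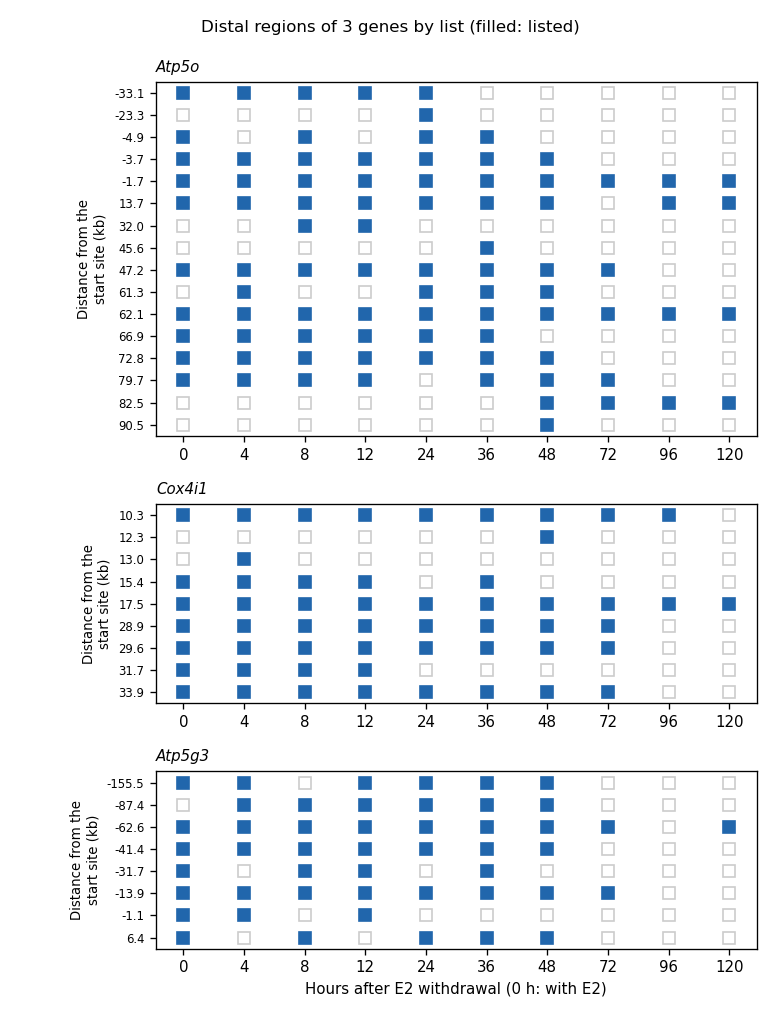
Distal regions of Atp5o, Cox4i1 and Atp5g3, which are among the genes with most distal regions, by distance from the start site in kb (rows, negative upstream) and list (columns, hours after E2 withdrawal); filled squares are listed. Rows are filled mainly up to 48 h, many with gaps, and most are empty at 96 and 120 h. A single row of Cox4i1 and 2 of Atp5o are filled in all 10 lists.

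Atp5o, the subunit that joins the ATP synthase stalk to its head (chr16:91925223-91931630), had the most distal regions, 16, with 4 distal peaks at 120 h and 10 at 0 h. Most of those downstream of it lay within Itsn1, an endocytic scaffold gene. A region 62058 bp from the Atp5o start site (chr16:91869101-91870105) and another 1736 bp upstream of it (chr16:91933109-91933592) were in all 10 lists. Of its regions 4 were lost and 1 was gained, chr16:91848867-91849398 in an Itsn1 intron, which was listed from 48 h on. Cox4i1 had 9 distal regions, all intergenic and 10312 to 33869 bp beyond its start site, with 1 distal peak at 120 h and 8 at 0 h. Irf8, a factor of the monocyte and dendritic lineages, starts beyond them at chr8:120736358, so these regions lie between Cox4i1 and Irf8. The region chr8:120685170-120686799 stayed in all 10 lists.

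Atp5g3 and Cox4i2 had 8 distal regions each. Those of Atp5g3 were intergenic, up to 155510 bp upstream, with 1 distal peak at 120 h and 7 at 0 h. Those of Cox4i2, a lung isoform with no promoter peak here, reached into the neighbouring Bcl2l1, a survival gene, and the region in a Bcl2l1 intron at chr2:152788490-152790063 was in all 10 lists. Uqcrfs1 had 7 regions, Cox7a2l and Ndufb9 had 6 each and Atp5j had 5. The regions of Ndufb9 lay in introns of Mtss1. Ndufa4, a subunit of complex IV, had 4 lost regions, 113841 to 463499 bp from its start site, and its 4 distal peaks at 0 h left 0 at 120 h. The other gained regions were chr11:96081078-96081280, 5485 bp upstream of Atp5g1, and chr17:78938995-78939393 in an intron of Ndufaf7, which was listed from 36 h on.

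Letters of 3 factors known from respiratory chain promoters were looked for on both strands in RefSeq promoter windows of GRCm38.p6, from 250 bases before to 50 after the start site, which were at hand for 73 of the 88 genes. The NRF1 letters GCATGCGC were in 12 of the 73 (16.4%, 9.66% to 26.6%), against 3.05% of 27025 genes and 4.81% of 13095 protein-coding genes with a listed peak. The ETS letters CCGGAAG, which GABPA recognises, were in 18 (24.7%, 16.2% to 35.6%), against 9.93% of all genes and 15.6% of genes with a peak. Before the start site only, the interval of the ETS share held that of genes with a peak. The YY1 letters AAGATGGC were in 10 (13.7%, 7.61% to 23.4%), against 3.19% and 4.18%. The Sp1 letters GGGCGG were in 33 (45.2%, 34.3% to 56.6%), against 38.2% and 58.8%, and the CCAAT box in 33 (45.2%), against 41.1% and 41.9%. The TATA letters TATAAA were in 6 (8.22%, 3.82% to 16.8%), against 15.7% and 11.4%. The median GC content was 58.3%, against 58.7% for genes with a peak, and the median number of CpG in a window was 20, against 17. Letters are a description and not a bound site.

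**Figure D5:**
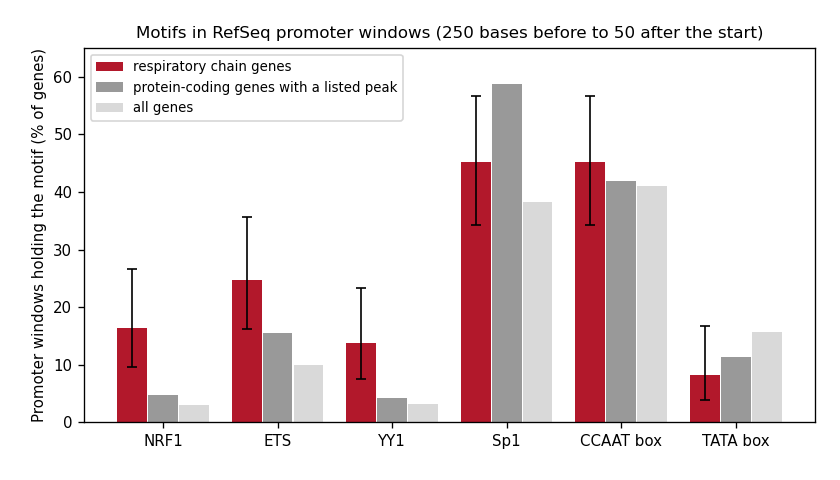
Share of promoter windows (% of genes) that hold each motif on either strand, for 73 respiratory chain genes (red, bars with 95% Wilson intervals), protein-coding genes with a listed peak (dark grey) and all genes (light grey). For NRF1, ETS and YY1 the red intervals start above both grey bars, and for Sp1, the CCAAT box and the TATA box they reach at least 1 of them.

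The YY1 letters shared a strand and mostly lay after the start site. In all 10 genes they read along the gene's own strand, and in 9 of them they began 11 to 39 bases after the start site. The window ended 50 bases after the start site, so sites further on could not be seen. Over protein-coding genes with a peak, 1.85% had them on that strand after the start site, 1.11% on that strand before it, 0.351% on the other strand after it and 1.03% on the other strand before it. The sites are shown with up to 8 bases on each side, and whether they share more than the letters searched was not measured. Capitals mark the letters, which include ATGGC.
Ndufaf8, chr11:120098936-120098959, plus strand: cagggcccAAGATGGCggcgccct
Ndufa3, chr7:3617387-3617410, plus strand: ccaagaacAAGATGGCcgggagta
Ndufc1, chr3:51408918-51408941, minus strand: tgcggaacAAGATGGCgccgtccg
Atp5j2, chr5:145191503-145191526, minus strand: aggacttcAAGATGGCgtcactcg
Ndufs7, chr10:80249465-80249488, plus strand: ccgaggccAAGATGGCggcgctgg
Ndufa9, chr6:126849100-126849123, minus strand: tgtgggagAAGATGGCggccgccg
Ndufs6, chr13:73328434-73328457, minus strand: tcaccggcAAGATGGCggcggtgc
Ndufs4, chr13:114388045-114388067, minus strand: cctacaggAAGATGGCggcggtc
Ndufb8, chr19:44555393-44555412, minus strand: agaaggtgAAGATGGCtgcc
Atp5j, chr16:84835049-84835072, minus strand: gtgtaggaAAGATGGCggagtctt
The first 9 lie after the start site and that of Atp5j lies before it, 88 bases upstream. Of the 10 genes, 7 encode complex I subunits, 1 a complex I assembly factor and 2 ATP synthase subunits.

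The NRF1 letters overlap themselves on the other strand, so that a longer palindrome counts on both. They began before the start site on the gene's own strand in 10 genes, which are shown because they came from every complex. Capitals mark the letters on the strand of the gene.
Uqcr11, chr10:80406810-80406833, minus strand: gccttcacGCATGCGCtatacgtc
Ndufa8, chr2:36049331-36049354, minus strand: ctggagacGCATGCGCagatggta
Atp5g2, chr15:102671072-102671095, minus strand: ccggccgcGCATGCGCagagcctt
Atp5k, chr5:108434432-108434455, minus strand: actgcggcGCATGCGCctttctgg
Sdhb, chr4:140961209-140961232, plus strand: cccagtggGCATGCGCcctacggg
Ndufa6, chr15:82354359-82354382, minus strand: gcggtagaGCATGCGCattgcaga
Cox6a1, chr5:115349103-115349126, minus strand: aacggggcGCATGCGCgctctcgc
Atp5l, chr9:44920967-44920990, minus strand: ccaataacGCATGCGCatttcccc
Ndufa11, chr17:56717696-56717719, plus strand: cactgcgcGCATGCGCgcacgcct
Ndufaf4, chr4:24897964-24897987, plus strand: atgtctgcGCATGCGCctgtgcgg
Of these 10 genes, 7 had a start-site peak at 0 and at 120 h, while Uqcr11, Ndufa8 and Ndufa6 had one at 120 h and none at 0 h.

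Other genes that serve the chain had start-site peaks at both ends of the course for the most part. Complex IV assembly factors had them for 14 of 14 genes at 120 h against 12 of 14 at 0 h, and Cox10 and Cox20, the 2 added, already had 1152 and 1473 bp at 4 h. Complex III assembly factors had 5 of 6 at 120 h and 5 of 6 at 0 h, without Ttc19 at 120 h and without Uqcc3 at 0 h. Complex II assembly factors had 4 of 4 at both times, and ATP synthase assembly genes and inhibitor 2 of 3 at both times. No list assigned a peak to the remaining one, Atpaf2, so no start site could be derived for it and a start-site peak could not be counted. Genes that copy and read the mitochondrial genome had 10 of 10 at 120 h against 9 of 10 at 0 h. Peo1, an older symbol of Twnk, was in the list too and is not counted here. Regulators of respiratory chain genes had 8 of 9 at 120 h against 4 of 9 at 0 h. Ppargc1a had no assigned peak either, so its start-site peak could not be counted. The 4 added regulators were Gabpa and Gabpb1, the subunits of GABP, Esrra, a nuclear receptor, and Ppargc1b, a coactivator. All 4 already had a start-site peak at 4 h, 1552 bp wide for Gabpa, 1560 bp for Gabpb1, 1014 bp for Esrra and 789 bp for Ppargc1b, so among the early lists, 0 to 8 h, only that of 0 h lacked them, and the peak of Gabpa is the same as that at Atp5j. Ppargc1b was again without a peak from 36 to 72 h and Esrra at 12 h. Cycs, cytochrome c itself, had a peak at both times. Medians of the log2 width ratio were -0.07 for complex IV assembly, 0.02 for complex III assembly, -0.16 for complex II assembly, -0.12 for the mitochondrial genome list and -0.11 for the regulators, against -0.08 for all protein-coding genes.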

How the data were processed

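The authors deposited 1 HOMER-annotated peak list per time point for both of its samples. Per the labels' protocols, nuclei of 1 preparation were split into 2 transposition reactions, so replicates may be technical. The submitters' processing notes name BWA, MACS2 2.0, STAR 2.5 and mm9, without roles, whereas the file headers say the annotation is mm10. Pooling and any shift of reads are not given in the sources used here. The deposited peak score was 0 for every peak, so widths were used. Deposited starts, ends, genes and distances were taken as they stand, with coordinates counted from 1 in mm10, and 49 peaks had no gene name.

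Start sites were derived from peak centres and deposited distances for 24732 of 25532 promoter identifiers, 641 of them with the help of RefSeq gene bounds (GRCm38.p6, the sequence of mm10). RefSeq positions matched 87 of the 88 genes. No start site was derived for Cox6b2, which is counted among the genes without a start-site peak. Start-site peaks, overlap joining and region classes were tested on simulated data. The genes, lists, motifs and rules were chosen with earlier results of these data known, and the start-site measure was added after the lists were seen. Genes were named by rule: the 4 genes of complex II, the genes that changed in promoter listing or had most gained, lost, transient or distal regions, the 5 largest width changes in each direction, the restricted isoforms and the 3 c subunit genes. A few genes counted here are not reported by name. Genes named otherwise illustrate a group and were chosen after their values were seen. Alternatives covered the promoter distance, list length, time points, overlap, gene set and motif window. Shares have Wilson intervals, ratios of peak numbers exact binomial ones, and medians intervals by rank over genes, which are not replicates. Tables were handled with pandas 2.3.3 and numpy 2.4.6 in Python 3.11.15, intervals came from scipy 1.17.1, and figures were drawn with matplotlib 3.10.9.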

Additional observations from a re-analysis of the deposited data

How the results depend on the processing

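The number of promoter peaks at 120 h over 0 h had a log2 ratio of 0.06 with an interval that held 0, and its sign turned with a promoter distance of 2000 bp (-0.08) and with 4 h in place of 0 h (-0.02), so it has no direction. The median width ratio and the ratio of distal peaks stayed negative under every alternative run, but not every interval excluded 0. The interval of the width ratio held 0 with 96 h in place of 120 h (-0.05, -0.122 to 0.013). It also held 0 with structural subunits only (-0.07, -0.124 to 0.04). That of the distal ratio held 0 with lists of equal length (-0.64, -1.43 to 0.12). With all lists held to the length of the shortest, by width, the log2 ratio of distal peaks at 120 h over 0 h was -0.64 in place of -2.12, and regions gained and lost numbered 2 and 10 in place of 4 and 27. With 2 early and 2 late lists in place of 3 they numbered 8 and 63. With 4 h in place of 0 h the median log2 width ratio was -0.13 in place of -0.07. Before the start site only, the YY1 letters were in 1.37% of promoters in place of 13.7%. In that window the ETS letters were in 19.2% (11.8% to 29.7%), against 12.4% of protein-coding genes with a peak, a share inside the interval. The NRF1 letters were in 12.3% (6.62% to 21.8%), against 4.04%, which lay below the interval. The causes were not tested beyond what these settings change themselves. No paired analysis was possible because each time point had 1 list for both samples, and leaving out a replicate was not possible for the same reason. Depth is unknown, so a peak that is not listed was not called, which does not show closed chromatin.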

Other observations

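Genes of the TCA cycle, which feeds the chain, had a start-site peak for 14 of 15 genes at 120 h and 13 of 15 at 0 h. Among the genes with a peak at both times, 2 were wider at 120 h and 10 were narrower, with a median log2 width ratio of -0.23. Ogdh had a peak at 0 h and none at 120 h, and Mdh2 was among those with the reverse. Ogdh was also without a peak at 12 and 24 h, and Mdh2 had 960 bp at 4 h. Genes of glycolysis, the other main source of ATP, had a start-site peak for 18 of 19 genes at 120 h and 18 of 19 at 0 h. Among those with a peak at both times, 8 were wider at 120 h and 9 were narrower, with a median log2 ratio of -0.02. Over all 7680 protein-coding genes with a peak at both times, 35.2% were wider and the median was -0.08. Slc2a3, a glucose transporter, had a peak at 120 h and none at 0 h, and Ldha, lactate dehydrogenase, the reverse. Slc2a3 had 903 bp at 8 h already, and Ldha was listed at 36, 48 and 72 h and at none of 4, 8, 12, 24 and 96 h. Glycolysis genes had 34 distal peaks at 120 h and 63 at 0 h, and the respiratory chain genes had 25 at 120 h and 109 at 0 h. All distal peaks numbered 14652 at 120 h and 44654 at 0 h, or 32.8%. The interval of the respiratory chain genes held that share. No test was made of these differences.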
